A study of Arabidopsis thaliana with 20 samples.

Results

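The glutathione S-transferases (GSTs) of *A. thaliana* were examined in shoots of Parafilm-sealed and of aerated plants. Members were the genes of the deposited expression table whose description contains the words glutathione S-transferase, in any case, which gave 50 of 33296 genes. By symbol or description, 23 belonged to the tau class, 12 to the phi class, 3 each to the lambda and theta classes, 2 each to the dehydroascorbate reductases (DHARs) and the zeta class, and 1 each to the TCHQD and microsomal classes, and 3 carried no class name. The rule passed over 7 genes with a GST or DHAR symbol in the reference annotation, because their deposited description is the bare symbol. These are GSTU5, GSTU6, GSTU14, GSTU15, GSTU19, GSTF9 and DHAR3, and their values are given separately. Parafilm-sealed plants (non-aerated in the labels) grew in closed dishes without air flow, and aerated plants in dishes flushed through filters at 0.15 to 0.25 L/min. The paper describes the aerated dishes as Parafilm-sealed too, so the treatments differ in air flow, and Parafilm-sealed here means without it. All plants were of the Col-0 ecotype, grew on medium with 1% sucrose and, per the labels, were harvested 15 days after vernalization, although the sources differ on the day of harvest. Each treatment had 4 libraries, and each library was the pooled shoots of the 10 plants of 1 dish, so the spread is that between dishes. A further set of plants, Micropore-sealed ones included, was not analysed here.

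GSTs join the tripeptide glutathione to reactive small molecules, reduce peroxides with it, or bind and carry compounds without changing them. The tau and phi classes are the large plant classes, many of whose genes are known to respond to wounding, pathogens, herbicides or oxidative stress. Theta and zeta GSTs have relatives in animals, and lambda GSTs and DHARs act as glutathione-dependent reductases. In leaves, the DHARs return dehydroascorbate to ascorbate, and glutathione reductase and the enzymes of glutathione synthesis keep the pool of reduced glutathione filled.

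Expression is given in normalized counts, i.e., reads per gene divided by the size factor of the library. Between 34330463 and 60255788 reads per library were recovered from the deposited values. The leaf markers RBCS1A, CAB1, CAB2 and PSAD-1 summed to between 1487270 and 1954240 normalized counts in Parafilm-sealed and between 1944380 and 2725580 in aerated libraries. Only CAB2, a light-harvesting protein gene, passed, and it fell by 0.67 ± 0.19 on the log2 scale (SE, limma adjusted p = 0.0338). RBCS1A, CAB1 and PSAD-1 overlapped between treatments, with log2 changes of -0.20, -0.41 and -0.33 (limma adjusted p = 0.523, 0.214 and 0.2). The 5 root markers summed to between 11772 and 16339 normalized counts in Parafilm-sealed and between 13379 and 17398 in aerated libraries, almost all of it from 1 gene. COBL9, EXPA7, CASP1 and IRT1 averaged under 50 normalized counts in both treatments, while PYK10, a beta-glucosidase gene, was well above 0 and averaged 14998 ± 2189 in Parafilm-sealed and 14583 ± 1882 in aerated plants (SD, n = 4 each). The part of these markers in the results on GSTs was not tested. In pooled shoots, more RNA of a gene per cell and more cells that express it cannot be told apart.

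Of the 50 members, 44 reached 10 normalized counts in at least 4 of the 8 libraries and were tested. Limma with Benjamini-Hochberg adjustment over all 20160 tested genes (adjusted p value under 0.05) found 10 of the 44 higher and 1 lower in Parafilm-sealed plants. The higher share was 22.7% of the tested members, against 12.4% of all tested genes, and the lower share was 2.27%, against 10.0% of all tested genes. With a change of at least 2-fold as well, 8 were higher (18.2%, against 5.24% of all tested genes) and 1 was lower (2.27%, against 2.63%). The groups did not overlap for 11 tested members on the higher side, where 14.3% of all tested genes did the same, and for 2 on the lower side, where 13.0% did. The median log2 change of the tested members was 0.14, against -0.0024 over all tested genes. The classes contributed unequally to these counts. Of the 9 tested phi genes, 5 rose (55.6%, against 12.4% of all tested genes) and none fell, with a median log2 change of 1.08. Of the 21 tested tau genes, 3 rose (14.3%) and 1 fell (4.76%, against 10.0% of all tested genes), with a median of 0.15. Of the 14 tested members of the other classes, 2 rose (14.3%), both by less than 2-fold, and the median was 0.056. The shares that rose in the tau and other classes were thus near that of all tested genes. Among the genes that rose, GSTF13 (phi) and GSTU12 (tau) met the limit of 10 in all Parafilm-sealed libraries but not in all aerated ones. Their aerated libraries had 20.2, 1.1, 2.6 and 4.3 normalized counts for GSTF13, and 10.1, 2.3, 23.7 and 7.7 for GSTU12. The difference between classes was not tested.

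**Figure D1:**
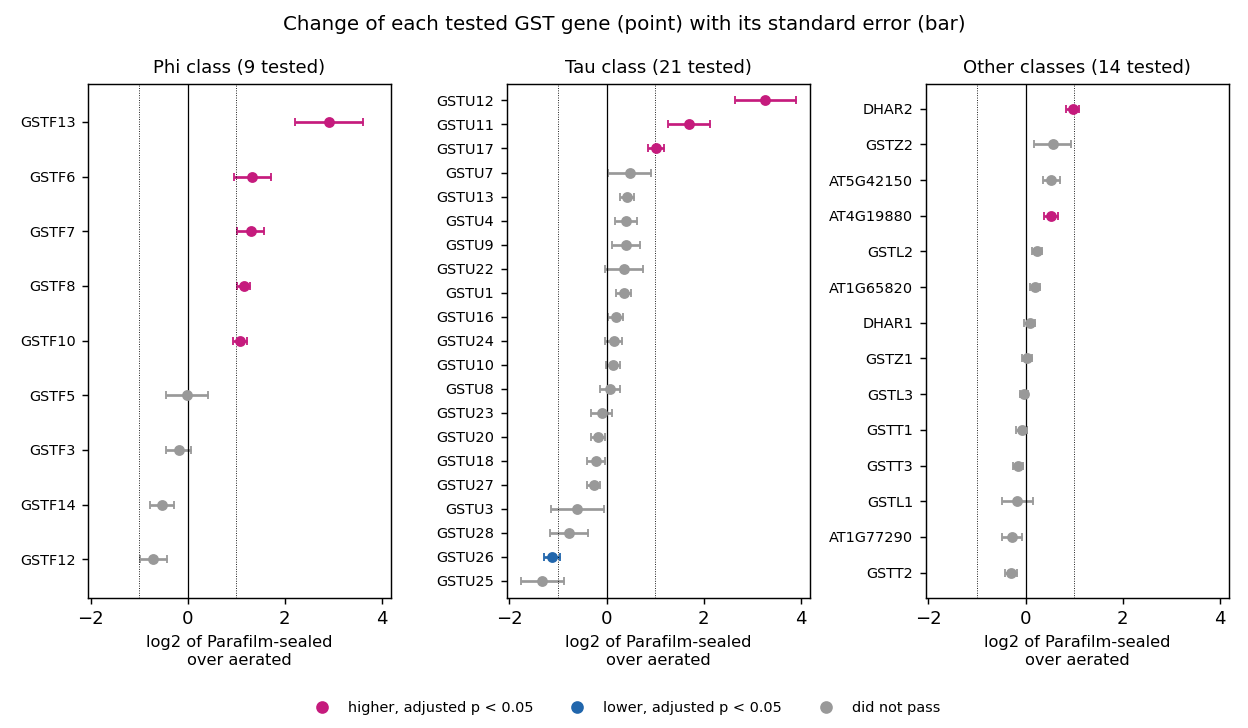
Log2 of Parafilm-sealed over aerated expression for the 44 tested GST genes (points, limma) with standard errors (bars), in 3 panels by class. The 5 phi genes with adjusted p under 0.05 lie right of 1, the lone gene that fell is GSTU26 at -1.12, and dotted lines mark a 2-fold change.

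The summed level of the phi class was 32531, 49964, 29270 and 46434 normalized counts in Parafilm-sealed libraries 2, 4, 6 and 8, against 17318, 18025, 17336 and 16073 in aerated libraries 1, 3, 5 and 7. Every Parafilm-sealed library was above every aerated one, with a mean of 39550 ± 10178 against 17188 ± 813 (SD, n = 4 each), a ratio of 2.30. The tau class summed to 14746, 18618, 17008 and 20019 normalized counts in Parafilm-sealed plants, against 19025, 17147, 16973 and 15592 in aerated plants, and here the treatments overlapped (17598 ± 2264 against 17184 ± 1410, SD, n = 4 each). The 15 members of the other classes summed to 32343 ± 520 in Parafilm-sealed and 29689 ± 1114 in aerated plants. Phi transcripts thus made up 37.2% to 49.5% of the counts of the 50 members in Parafilm-sealed libraries and 26.2% to 28.0% in aerated ones, and tau transcripts 18.5% to 21.6% and 25.9% to 28.8%. Within a class the sum of the members rested on few genes. GSTF8, GSTF10, GSTF6 and GSTF7 held 99.0% of the counts of the 12 phi members, and the other 8 phi genes together averaged 273 ± 57.8 normalized counts in Parafilm-sealed and 320 ± 26.1 in aerated plants. GSTU20 alone held 51.2% of the counts of the 23 tau members, and without it the log2 ratio of the tau sum was 0.25 instead of 0.034. With GSTF9, the phi gene that the rule passed over, the phi sum was 59788 ± 11773 in Parafilm-sealed and 36333 ± 2103 in aerated plants, a ratio of 1.65, and GSTF9 alone held 41.0% of it. With the tau genes that the rule passed over, the tau sum was 30929 ± 3649 in Parafilm-sealed and 29536 ± 2294 in aerated plants, of which GSTU19 held 34.6% and GSTU20 29.5%. Over these 57 genes together, phi transcripts made up 40.8% to 50.7% of the counts in Parafilm-sealed and 34.8% to 36.2% in aerated libraries, and tau transcripts 22.2% to 26.1% and 27.9% to 30.4%.

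**Figure D2:**
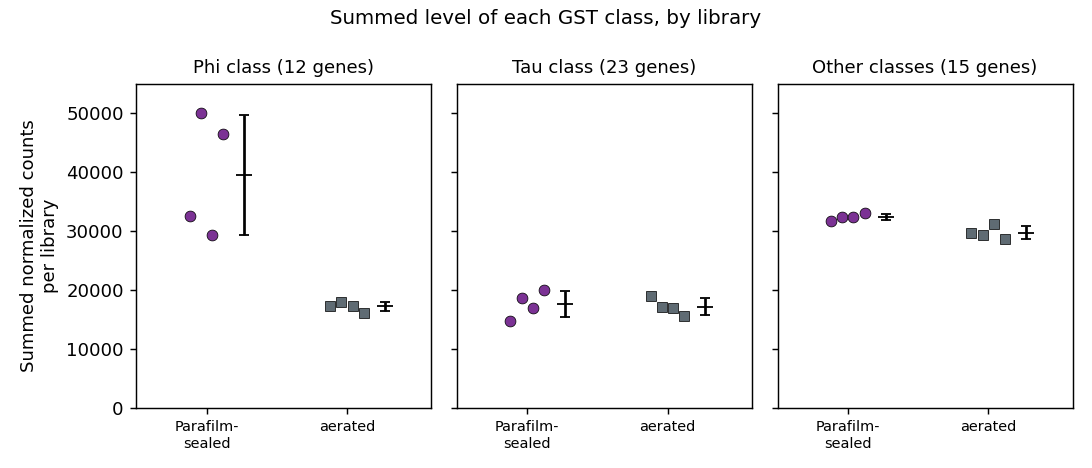
Summed normalized counts of the phi, tau and other GST classes in each Parafilm-sealed (circles) and aerated (squares) library, with mean and SD beside the points. The phi sums are between 29270 and 49964 in Parafilm-sealed and between 16073 and 18025 in aerated libraries, while the tau sums of the treatments overlap.

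GSTF8 is an early-response stress gene whose product occurs in the chloroplast and the cytosol, and it had the highest counts among the 12 phi members. It had 14137, 18555, 14918 and 20812 normalized counts in Parafilm-sealed libraries 2, 4, 6 and 8, against 7633, 7590, 8197 and 6947 in aerated libraries 1, 3, 5 and 7. The treatments lay far apart relative to the spread between dishes, with a log2 change of 1.16 ± 0.13 (SE, limma adjusted p = 0.000427). GSTF10, known as a gene induced early by dehydration, had 11727, 14302, 9633 and 14959 normalized counts in Parafilm-sealed plants, against 5682, 6585, 5572 and 5758 in aerated plants. Its log2 change was 1.08 ± 0.14 (limma adjusted p = 0.00084). Per kilobase of exon, GSTF10 averaged 11180 normalized counts in Parafilm-sealed and 5211 in aerated plants, and GSTF8 averaged 7142 and 3170. The exons of all annotated transcripts of a gene were merged for this, which gave 1.132 kb for GSTF10 and 2.395 kb for GSTF8. A gene whose transcripts are shorter than this merged length is therefore set too low. By counts per kilobase the highest member over all libraries was DHAR1 (10021 in Parafilm-sealed, 9412 in aerated plants).

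GSTF6 and GSTF7 are a tandem pair on chromosome 1. GSTF6 is known to attach glutathione to an indole intermediate of camalexin, the main antimicrobial compound of this species, and GSTF7 is its close copy. GSTF6 had 3882, 11115, 2377 and 6339 normalized counts in Parafilm-sealed libraries 2, 4, 6 and 8, against 2092, 2279, 1779 and 1911 in aerated plants. GSTF7 had 2486, 5652, 2103 and 4112 normalized counts in Parafilm-sealed plants, against 1562, 1248, 1462 and 1172 in aerated plants. Both genes were highest in Parafilm-sealed library 4, next in 8, then 2, and lowest in 6, and in both the lowest Parafilm-sealed library was still above the highest aerated one. The log2 change was 1.33 ± 0.38 for GSTF6 (limma adjusted p = 0.0319) and 1.30 ± 0.27 for GSTF7 (adjusted p = 0.0085). The call of GSTF6 was lost, with limma adjusted p between 0.055 and 0.0826, without Parafilm-sealed library 8 or without any 1 of the 4 aerated libraries, while GSTF7 kept its call without each library in turn. Their coding sequences were 94.3% identical, and 1.56% of the 100-base windows of the GSTF6 transcript occurred in GSTF7 as well, so reads in these windows cannot be assigned to 1 gene. The other neighbour of GSTF6, GSTF5, had 20.4, 21.6, 6.4 and 15.1 normalized counts in Parafilm-sealed plants, against 19.3, 18.3, 9.2 and 13.8 in aerated plants, and its log2 change of -0.0094 ± 0.44 did not pass (adjusted p = 0.99).

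The remaining phi gene that rose was sparse. GSTF13 had 66.0, 57.7, 35.1 and 18.1 normalized counts in Parafilm-sealed plants, against 20.2, 1.1, 2.6 and 4.3 in aerated plants. Aerated library 1 was above Parafilm-sealed library 8, so the treatments overlapped, and only that aerated library reached the limit of 10. The log2 change was 2.91 ± 0.70 (limma adjusted p = 0.015), and it was 3.57 without aerated library 1 and 1.69 with a pseudocount of 10 in place of 1. The other tested phi genes did not pass, among them GSTF12, which is needed to bring anthocyanins into the vacuole (89.1 ± 28.8 normalized counts in Parafilm-sealed and 142 ± 30.3 in aerated plants, SD, n = 4 each, adjusted p = 0.0929).

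The 250 bases before the annotated start of each member were searched on both strands for 3 short elements. These were TGACG (the core of as-1 elements, which TGA factors bind, CGTCA on the other strand), TTGAC (the core of the W-box of WRKY factors, GTCAA on the other strand) and CACGTG (the G-box, the same on both strands). TGACG and TTGAC can overlap by sharing the bases TGAC. TGACG occurred in 15 of 50 members (30%) and in 18.6% of 27442 protein-coding genes of the table, TTGAC in 32 members (64%) and 44.9% of genes, and CACGTG in 6 members (12%) and 6.49% of genes. Among the 10 members that rose, 3 held TGACG, 8 held TTGAC and 2 held CACGTG, and among the 33 tested members that did not pass the numbers were 12, 20 and 4. A match describes letters and not a bound site. The windows of GSTF7 and GSTF10 are shown because these genes were among the 4 phi members with the highest counts and no other annotated gene reaches into the windows, as one does into that of GSTF8. Sequences and positions are from RefSeq for the TAIR10.1 assembly, read 5′ to 3′ on the strand of the gene, with the elements in capitals. They are chr1:659981-660230 (GSTF7, minus strand) and chr2:13141040-13141289 (GSTF10, plus strand).
GSTF7: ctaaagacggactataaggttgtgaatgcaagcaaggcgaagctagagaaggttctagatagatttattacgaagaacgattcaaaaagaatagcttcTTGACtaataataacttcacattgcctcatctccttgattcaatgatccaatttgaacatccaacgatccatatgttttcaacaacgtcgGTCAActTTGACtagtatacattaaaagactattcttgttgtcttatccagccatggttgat
GSTF10: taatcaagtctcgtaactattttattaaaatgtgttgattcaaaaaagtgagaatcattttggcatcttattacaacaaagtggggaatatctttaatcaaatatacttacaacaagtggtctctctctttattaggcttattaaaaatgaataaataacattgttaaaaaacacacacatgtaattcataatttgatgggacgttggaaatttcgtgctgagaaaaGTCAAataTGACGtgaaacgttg
GSTF7 held TTGAC or its complement 152, 62 and 55 bases before the start. In GSTF10, TTGAC and TGACG stood 23 and 15 bases before the start.

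Of the 21 tested tau members, 3 rose by at least 2-fold with adjusted p under 0.05 (14.3%, against 5.24% of all tested genes). Under the same limits 1 fell (4.76%, against 2.63%). Without the 2-fold limit the tau shares were the same, against 12.4% and 10.0% of all tested genes. GSTU17 is known from light and stress signalling, and it had 1328, 1703, 1831 and 1221 normalized counts in Parafilm-sealed libraries 2, 4, 6 and 8, against 965, 641, 708 and 680.1 in aerated libraries 1, 3, 5 and 7. Its treatments did not overlap, and the log2 change was 1.02 ± 0.17 (SE, limma adjusted p = 0.00246). GSTU17 kept an adjusted p under 0.05 without each library in turn. However, its change was under 2-fold without Parafilm-sealed library 4 or 6 or aerated library 3 or 7 (log2 change between 0.924 and 0.981). Its tandem neighbour GSTU18, whose annotated start overlaps the end of GSTU17 by 71 bases on the same strand, had 1010, 1034, 1447 and 1824 normalized counts in Parafilm-sealed plants, against 1432, 1340, 1845 and 1417 in aerated plants. GSTU18 overlapped between treatments, with a log2 change of -0.22 ± 0.19 (adjusted p = 0.455). Their coding sequences were 81.6% identical, with no shared window of 100 bases.

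GSTU12 and GSTU11 are adjacent on chromosome 1, with 57.7% identity of their coding sequences. GSTU12 had 49.2, 89.0, 65.9 and 225 normalized counts in Parafilm-sealed plants, against 10.1, 2.3, 23.7 and 7.7 in aerated plants. GSTU11 had 56.7, 114, 98.9 and 267 normalized counts in Parafilm-sealed plants, against 23.5, 52.5, 29.0 and 40.4 in aerated plants. Parafilm-sealed library 8 was highest and library 2 lowest for both genes, and neither gene overlapped between treatments. The log2 change of GSTU12 was 3.27 ± 0.63 (limma adjusted p = 0.0053), the highest estimate among the 44 tested members, and it was 2.37 with a pseudocount of 10. Only aerated libraries 1 and 5 reached the limit of 10 for GSTU12. The log2 change of GSTU11 was 1.69 ± 0.43 (adjusted p = 0.02), and the call was lost without aerated library 1 (adjusted p = 0.0521) or 5 (adjusted p = 0.0563).

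GSTU26 was the lone member that fell. It had 92.9, 74.6, 88.2 and 85.1 normalized counts in Parafilm-sealed plants, against 189, 153, 240.0 and 174 in aerated plants, with no overlap and a log2 change of -1.12 ± 0.17 (limma adjusted p = 0.00162). Beside it lies GSTU25, whose enzyme is known to conjugate the explosive TNT. GSTU25 had 21.4, 14.4, 18.1 and 20.3 normalized counts in Parafilm-sealed plants, against 72.2, 25.1, 100.2 and 27.5 in aerated plants. The treatments did not overlap, although aerated libraries 3 and 7 lay close to the Parafilm-sealed ones. The log2 change of -1.32 ± 0.44 did not pass in limma (adjusted p = 0.0564) and passed in edgeR's quasi-likelihood test on the recovered reads (adjusted p = 0.0335). The windows before the starts of both tandem genes that rose and of GSTU26 are shown for comparison with those of the phi genes, with the elements in capitals. They are chr1:26335631-26335880 (GSTU12, minus strand), chr1:26338819-26339068 (GSTU11, minus strand) and chr1:5875045-5875294 (GSTU26, plus strand).
GSTU12: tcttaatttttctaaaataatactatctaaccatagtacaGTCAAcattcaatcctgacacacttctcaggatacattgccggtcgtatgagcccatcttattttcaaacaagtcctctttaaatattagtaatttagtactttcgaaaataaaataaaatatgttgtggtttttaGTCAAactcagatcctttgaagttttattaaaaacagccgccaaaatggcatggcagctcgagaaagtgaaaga
GSTU11: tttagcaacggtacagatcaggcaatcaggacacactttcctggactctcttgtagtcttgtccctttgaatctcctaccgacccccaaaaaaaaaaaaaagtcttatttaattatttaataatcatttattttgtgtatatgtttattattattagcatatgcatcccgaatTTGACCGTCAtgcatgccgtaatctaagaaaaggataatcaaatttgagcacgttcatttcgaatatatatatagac
GSTU26: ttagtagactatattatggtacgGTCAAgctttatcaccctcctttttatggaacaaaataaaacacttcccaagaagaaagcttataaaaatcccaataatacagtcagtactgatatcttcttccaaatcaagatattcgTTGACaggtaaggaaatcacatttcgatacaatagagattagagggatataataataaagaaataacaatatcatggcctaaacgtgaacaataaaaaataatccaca
In GSTU11 the elements TTGAC and CGTCA stood side by side, 77 and 72 bases before the start, and GSTU12 held GTCAA 210 and 74 bases before the start. GSTU26, which fell, also held TTGAC or its complement, 227 and 108 bases before the start.

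The 2 tau members with the highest counts, GSTU20 and GSTU13, did not pass. GSTU20, which binds the jasmonate-conjugating enzyme JAR1, had 8375 ± 1375 normalized counts in Parafilm-sealed and 9440 ± 1324 in aerated plants (SD, n = 4 each), and its log2 change was -0.18 ± 0.14 (SE, limma adjusted p = 0.4). GSTU13, linked to indole glucosinolate metabolism, had 2422, 2387, 2825 and 3767 normalized counts in Parafilm-sealed plants, against 1981, 2207, 2286 and 1939 in aerated plants. The treatments of GSTU13 did not overlap, and its log2 change of 0.42 ± 0.15 missed the threshold (adjusted p = 0.0658).

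**Figure D3:**
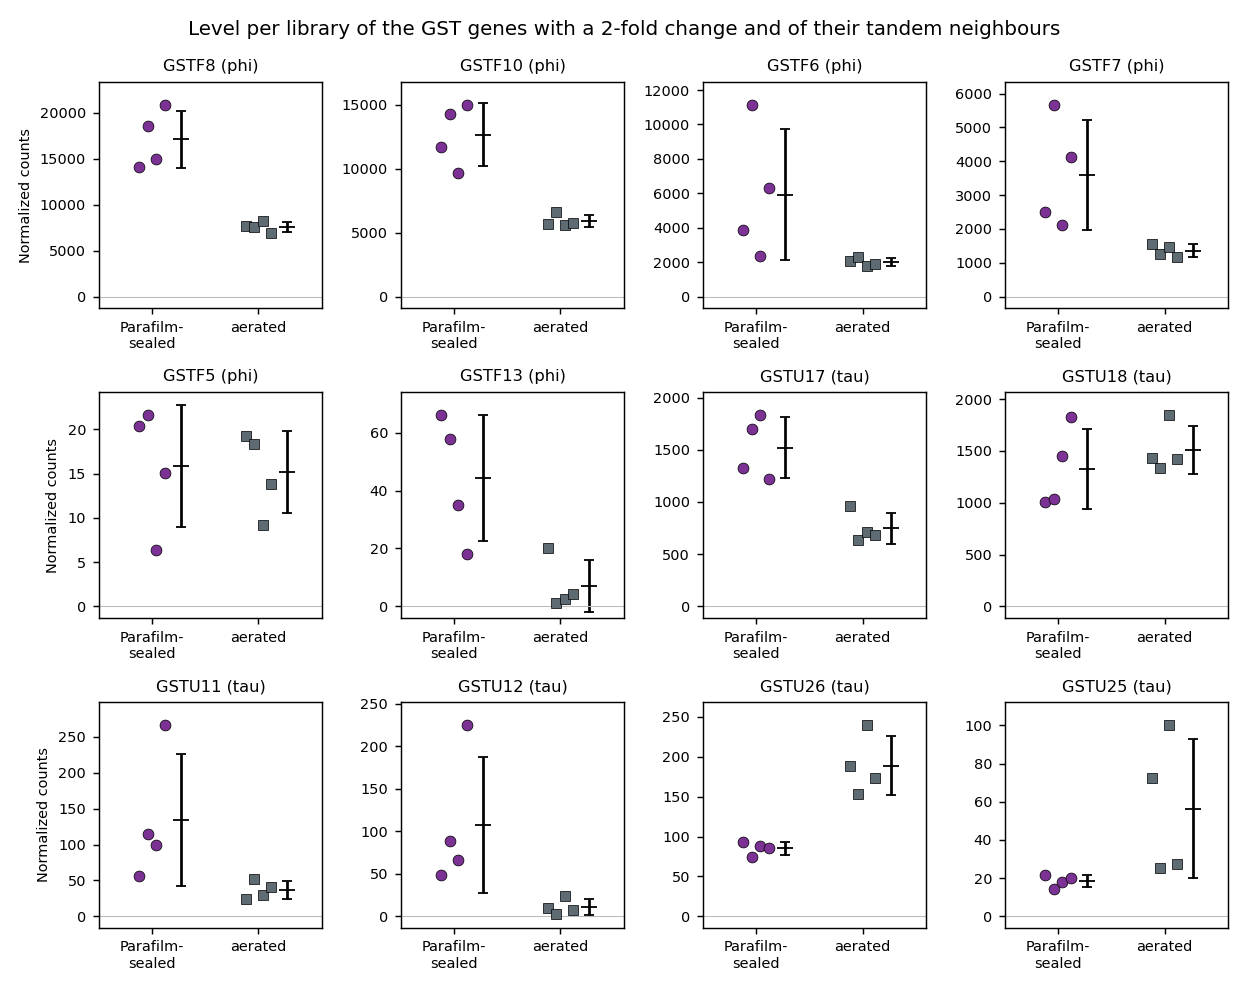
Normalized counts in each Parafilm-sealed (circles, left) and aerated (squares, right) library for the 9 GST genes with a 2-fold change and adjusted p under 0.05 and for their neighbours GSTF5, GSTU18 and GSTU25, with mean and SD beside the points, each panel on its own axis. GSTF8, GSTF10, GSTF6 and GSTF7 do not overlap between treatments, while GSTF13, GSTF5 and GSTU18 do.

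Among the other classes, DHAR2, a dehydroascorbate reductase of the cytosol, changed most. It had 1175, 1278, 914 and 931 normalized counts in Parafilm-sealed plants, against 612, 553, 517 and 496 in aerated plants. The treatments did not overlap, and the log2 change was 0.97 ± 0.13 (SE, limma adjusted p = 0.00103). DHAR1, the abundant DHAR, had 9139 ± 1235 normalized counts in Parafilm-sealed and 8584 ± 437 in aerated plants (SD, n = 4 each), with a log2 change of 0.082 ± 0.11 (adjusted p = 0.629), and 6.03% of its windows of 100 bases also occurred in AT1G19550. AT4G19880, which carries only the family name, had 2923, 3806, 2250.2 and 3087 normalized counts in Parafilm-sealed plants, against 2009, 2144, 1988 and 2131 in aerated plants. Its log2 change was 0.52 ± 0.14 (adjusted p = 0.0265), with adjusted p between 0.0545 and 0.0614 without Parafilm-sealed library 2 or any 1 of the 4 aerated libraries. AT5G42150, also without a class, had 888 ± 232 in Parafilm-sealed and 601 ± 67.9 in aerated plants, with no overlap and a log2 change of 0.53 ± 0.18 that missed the threshold (adjusted p = 0.0548).

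The lambda, theta, zeta, TCHQD and microsomal members had log2 changes between -0.30 and 0.56, and none of them passed. GSTL3, the abundant lambda gene, had 7215 ± 414 normalized counts in Parafilm-sealed and 7388 ± 431 in aerated plants, and GSTL2, a plastid lambda GST, had 3035 ± 350.2 and 2579 ± 203 (SD, n = 4 each). The theta genes GSTT1, whose product is found in peroxisomes, and GSTT3 had log2 changes of -0.079 ± 0.12 and -0.16 ± 0.10 (SE, limma adjusted p = 0.665 and 0.294). GSTZ1, the maleylacetoacetate isomerase of tyrosine breakdown, had 2018 ± 150.5 normalized counts in Parafilm-sealed and 1978 ± 172 in aerated plants (adjusted p = 0.853), and its neighbour GSTZ2 had 18.7 ± 2.90 and 13.2 ± 5.28 (adjusted p = 0.318). The microsomal GST AT1G65820 and the TCHQD-class gene AT1G77290 had log2 changes of 0.20 ± 0.11 and -0.29 ± 0.21 (adjusted p = 0.216 and 0.345).

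The 6 members below the limit were GSTF2, GSTF4, GSTF11, GSTU2, GSTU21 and AT5G44990. GSTF11 had no assigned read in any library. A count of 0 allows 3 reads, which correspond to between 2.26 and 3.96 normalized counts per library. This limit covers assigned reads only. Whether reads of these 6 members were lost when reads were assigned to genes was not tested, so their low counts do not show that they are silent. GSTF2, a well-studied phi GST, reached at most 1.2 normalized counts in Parafilm-sealed and 1.7 in aerated libraries, and GSTU2 at most 1.9 and 2.6. The coding sequences of GSTF2 and GSTF3 were 94.5% identical, although GSTF2 had no window of shared sequence with another gene. GSTF4 lay between 0 and 7.2 in Parafilm-sealed and between 4.2 and 18.5 in aerated libraries, GSTU21 between 0 and 4.5 and between 0 and 14.5, and AT5G44990 between 6.4 and 9.6 and between 6.0 and 11.9.

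Of the 7 genes that the rule passed over, 5 were tested, and they are named for completeness after their values were seen. GSTF9, the tandem neighbour of GSTF10, had 19528, 20898, 18173 and 22353 normalized counts in Parafilm-sealed plants, against 21215, 18841, 19118 and 17409 in aerated plants. The treatments overlapped, with a log2 change of 0.079 ± 0.11 (SE, limma adjusted p = 0.628), although the coding sequences of GSTF9 and GSTF10 were 77.6% identical. GSTU5 and GSTU6, another tandem pair, both rose. GSTU6 had 151, 150.3, 232 and 113 normalized counts in Parafilm-sealed plants, against 52.9, 65.1, 67.2 and 67.1 in aerated plants, with a log2 change of 1.30 ± 0.22 (adjusted p = 0.00289). GSTU5 had 1913, 1870.1, 4107 and 4888 normalized counts in Parafilm-sealed plants, against 1903, 1106, 1237 and 1021 in aerated plants. For GSTU5 Parafilm-sealed libraries 6 and 8 were high, aerated library 1 overlapped libraries 2 and 4, and the log2 change was 1.19 ± 0.33 (adjusted p = 0.0279). GSTU19 had 9963 ± 702 normalized counts in Parafilm-sealed and 10953 ± 533 in aerated plants, and the chloroplast gene DHAR3 had 5816 ± 290 and 6591 ± 779 (SD, n = 4 each), and neither passed (adjusted p = 0.3 and 0.239). With these genes, 12 of 49 tested GST and DHAR genes rose (24.5%, against 12.4% of all tested genes) and 1 fell (2.04%, against 10.0%).

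Genes with roles around glutathione, glutathione peroxidase-like genes included, were followed in a list of 26 genes chosen by function, of which 24 were tested. The list was chosen with earlier results of these data known, so its shares describe these genes and are no test of the pathway. Of these, 9 rose (37.5%, against 12.4% of all tested genes) and 1 fell (4.17%, against 10.0%), and 7 of the 9 rose by at least 2-fold. PCS2, 1 of these 7, reached 10 normalized counts in all Parafilm-sealed but not in all aerated libraries. The median log2 change of the 24 tested genes was 0.26. In synthesis, GSH1, the plastid glutamate-cysteine ligase that starts glutathione synthesis, had 15252 ± 952 normalized counts in Parafilm-sealed and 11658 ± 1111 in aerated plants (SD, n = 4 each), with a log2 change of 0.39 ± 0.10 (SE, limma adjusted p = 0.0218). Without Parafilm-sealed library 2 or aerated library 7 the adjusted p was 0.0566 or 0.0568. The next enzyme, GSH2, did not pass (adjusted p = 0.88). In reduction, GR1, the glutathione reductase of the cytosol and peroxisomes, had 4074 ± 317 normalized counts in Parafilm-sealed and 3079 ± 592 in aerated plants (log2 change of 0.42 ± 0.13, adjusted p = 0.0466), and its call was lost in 10 of 15 alternative runs, among them those without Parafilm-sealed library 2, 4 or 6 or aerated library 3, 5 or 7 (adjusted p between 0.0805 and 0.117). Of the 7 tested glutathione peroxidase-like genes, only GPX7, a chloroplast form, passed. It had 725, 653, 1088 and 578 normalized counts in Parafilm-sealed plants, against 360, 296, 256 and 306 in aerated plants (log2 change of 1.29 ± 0.19, adjusted p = 0.00152).

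Phytochelatin synthesis, conjugate transport and degradation held 13 of the 24 tested genes, of which 6 rose by 2-fold, 1 fell and 6 did not pass. Of all tested genes, 5.24% rose by at least 2-fold and 10.0% fell at any fold. These roles are part of the list chosen with earlier results known, so the counts describe these genes only. The 6 that did not pass were ABCC1, ABCC2, GGT4, GGP3, GGCT2;3 and OXP1, with log2 changes between -0.094 and 0.57. ABCC3, a vacuolar pump for glutathione conjugates, had 4496, 6682, 5924 and 7192 normalized counts in Parafilm-sealed plants, against 3011, 2814, 1191 and 2824 in aerated plants, with a log2 change of 1.37 ± 0.28 (SE, limma adjusted p = 0.00735). GGT1, a gamma-glutamyl transpeptidase outside the cell, had 2872, 4155, 3287 and 5080 normalized counts in Parafilm-sealed plants, against 1527, 1809, 1640 and 1541 in aerated plants (log2 change of 1.21 ± 0.16, adjusted p = 0.000994). GGP1, the peptidase that trims glutathione conjugates in glucosinolate and camalexin synthesis, had 7568, 9347, 8316 and 12524 normalized counts in Parafilm-sealed plants, against 4812, 3866, 3034 and 3528 in aerated plants (1.30 ± 0.18 on the log2 scale, adjusted p = 0.00102). None of these 3 genes overlapped between treatments, and Parafilm-sealed library 8 was highest for each. PCS1, a phytochelatin synthase that also cuts conjugates, had 5471, 8835, 4466 and 12354 normalized counts in Parafilm-sealed plants, against 2227, 3628, 2740 and 2775 in aerated plants (1.36 ± 0.29 on the log2 scale, adjusted p = 0.0087). Its sparse relative PCS2 had 27.3 ± 5.89 in Parafilm-sealed and 12.3 ± 5.07 in aerated plants (1.15 ± 0.36 on the log2 scale, adjusted p = 0.0446). This call was lost without any 1 library other than aerated library 1 (adjusted p between 0.0601 and 0.12). PCS2 met the limit of 10 in all Parafilm-sealed libraries but not in all aerated ones, which had 17.6, 6.9, 9.2 and 15.5 normalized counts. With a pseudocount of 10 its log2 change was 0.76, under 2-fold. Of the cyclotransferases that split glutathione in the cytosol, GGCT2;1 rose, with 351 ± 69.2 normalized counts in Parafilm-sealed and 154 ± 51.1 in aerated plants (1.22 ± 0.23 on the log2 scale, adjusted p = 0.0054), and GGCT2;2 fell, with 2984 ± 473 and 4419 ± 799 (-0.57 ± 0.15, adjusted p = 0.0241). Without Parafilm-sealed library 4 or aerated library 7 the adjusted p of GGCT2;2 was 0.0505 or 0.0532.

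**Figure D4:**
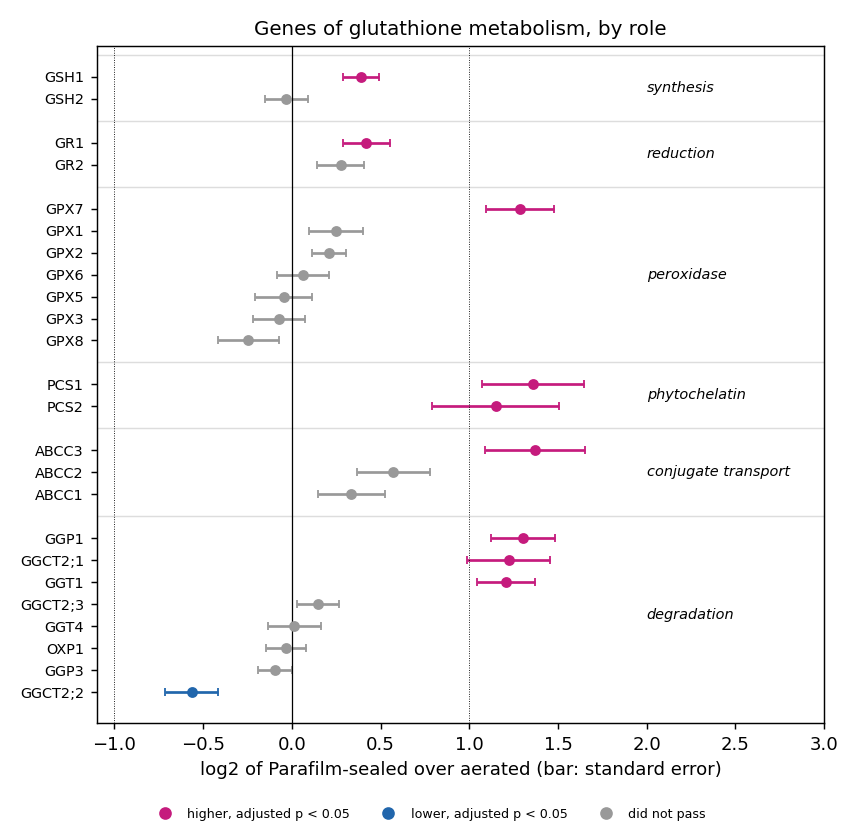
Log2 of Parafilm-sealed over aerated expression (points, limma) with standard errors (bars) for the 24 tested genes of glutathione metabolism, grouped by role. GPX7, PCS1, PCS2, ABCC3, GGP1, GGT1 and GGCT2;1 lie right of 1, and GGCT2;2 at -0.57 fell.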

How the data were processed

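Shoot mRNA of 4 Parafilm-sealed and 4 aerated dishes was sequenced (single-end, unstranded). The authors aligned to TAIR10 (HISAT2 2.0.4), assigned reads to Araport11 genes (featureCounts 1.5.2) and scaled each library by its DESeq2 size factor. The deposited signal per gene is this normalized count, rounded to 1 decimal, and at least 99.996% of the values above 0 were within 0.1 of a whole number of reads. Each read corresponded to 0.753 to 1.32 normalized counts. The authors' log2 fold changes and adjusted p values, and the table of the second set, which holds such comparisons alone, were not used.

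Members and lists were chosen with earlier results of these data known. A gene was tested if 4 or more libraries (3 where 1 was left out) reached 10 normalized counts. The test was limma with a mean-variance trend (version 3.58.1, R 4.3.3), on log2(normalized count + 1) and the change of a sparse gene depends on the pseudocount. Fold changes are Parafilm-sealed over aerated. Alternatives were edgeR 4.0.16 (TMM or DESeq2 size factors) and DESeq2 1.42.0 on the recovered reads, pseudocounts of 0.5 and 10, TMM before limma, no filter beyond 1 read, and leaving out each library. Libraries carry the numbers of the table's columns. The tests were checked on simulated data. Named are the members with adjusted p under 0.05, the 2 highest by count in each class, tandem neighbours of the 2-fold ones, and list genes with adjusted p under 0.05; GSTF12, GSH2, list genes that did not pass and the genes outside the rule were added after their values were seen. The window before 1 member is not reported here. Of the table's identifiers, 33011 of 33296 were in the TAIR10.1 annotation, which gave exon lengths, neighbours and the windows searched. Reads of near-identical or overlapping genes cannot be separated. Python 3.11.15, pandas 2.3.3 and scipy 1.17.1 were used.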

Additional observations from a re-analysis of the deposited data

Results flagged for a closer look

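In 72 groups of 4 libraries, the named genes in each treatment, 3 had 1 library far from the others (gap to the nearest library, divided by the range, above Dixon's critical value), and chance alone gives about 1 such group in 20. GSTF13 had 20.2 normalized counts in aerated library 1, against 1.1, 2.6 and 4.3 in the other aerated libraries. ABCC3 had 1190.6 normalized counts in aerated library 5, against 3011.2, 2814.1 and 2824.3 in the others. GGCT2;2 had 5610.2 normalized counts in aerated library 5, against 3925.1, 3995.1 and 4146.6 in the others.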

How the results depend on the processing

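The 8 members with a 2-fold rise remained 8 in number with edgeR, DESeq2, other pseudocounts, TMM and the weaker filter, and were between 5 and 8 without each library in turn, lowest without aerated library 5. Members with a rise at any fold were between 10 and 12, and between 7 and 11 without each library. The 1 member that fell became 2 with both edgeR fits and with DESeq2, with and without the 2-fold threshold, through GSTU25, and the count was between 1 and 2 without each library. The 9 glutathione genes that rose were between 8 and 9, and between 6 and 10 without each library, and the 1 that fell was between 0 and 1 without each library. The log2 ratio of the tau sum was 0.252 without GSTU20, and between -0.0334 and 0.110 without each library. That of the phi sum was between 1.20 and 1.23, and between 1.07 and 1.32 without each library. Of 540 values of named genes under the alternatives, 33 lost and 10 gained a call, and no called gene changed direction. GSTF7, GSTF8, GSTF10, GSTF13, GSTU12, GSTU17, GSTU26 and DHAR2 were called by adjusted p, at any fold change, in 15 of 15 runs. The cause of these shifts was not tested, except that GSTU20 holds much of the tau sum. No paired analysis was possible because the columns carry library numbers and not the replicate numbers of the labels. Why some members lay under the minimum, sequencing depth included, was not tested. Among the called members, counting error is largest for GSTF13 and GSTU12.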

Other observations

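The Parafilm-sealed libraries differed among themselves in the members that rose. Library 4 was the highest of the Parafilm-sealed libraries for 4 of the 10 members and library 8 for another 4, while library 6 was the lowest for 5. The members are not independent here, since GSTF6 and GSTF7 shared their highest library, as did GSTU11 and GSTU12. The same count over all tested genes was not made, so whether this order is particular to the GSTs was not tested.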
